A study of Mus musculus with 10 samples.

Results

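Copy number was examined at Ikzf2 and Ikzf3, the genes of Helios and Aiolos, in 10 mouse leukemias driven by BCR-ABL1. The members were array probes, 45 to 60 bases long, chosen by position alone: every non-control probe inside chr1:69550000-69760000 (Ikzf2) or chr11:98300000-98430000 (Ikzf3) in build mm9. These windows of 210 kb and 130 kb held 608 and 350 probes, 958 of the 402372 probes with a position on the array. Probes lay 292 bp apart in the median at Ikzf2 and 326 bp at Ikzf3, against 5.34 kb over the autosomes, so both loci were tiled densely.

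All 10 tumours were GFP-positive leukemic bone marrow cells, 5 from mice with the genotype Ikzf1+/+ (wildtype) and 5 from mice with the genotype Ikzf1+/-. Tumour DNA was labelled with Cy5 and hybridised on 2-colour arrays against DNA of non-leukemic bone marrow of a matched stage, labelled with Cy3, which the series' design text describes as normal DNA from B220+ B cells. Every group therefore carried BCR-ABL1 and GFP, no dye was swapped, and the labels gave neither the age of the mice, nor how the Ikzf1 allele was made, nor whether tumours of a genotype came from separate animals. The p-values below thus measure the spread between these samples. A log2 ratio above 0 meant more signal from the tumour. A change of 1 copy of 2 in every cell would give -1 for a loss and 0.58 for a gain.

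Ikaros (Ikzf1), Helios (Ikzf2) and Aiolos (Ikzf3) belong to one family of zinc finger transcription factors of blood cells. Zinc fingers near one end bind DNA, and those near the other end let family members pair with themselves or with each other. Aiolos is made mainly in B cells as they mature and acts there beside Ikaros, while Helios is best known in T cells, regulatory T cells among them, and in early blood progenitors. In the gene table at hand, of assembly GRCm38.p6, Ikzf2 lies on chromosome 1 between Erbb4 and Spag16, and Ikzf3 on chromosome 11 between Zpbp2 and the overlapping pair Grb7 and Mien1. Exon positions in mm9 were not used here, so a probe is described by its place in the window and not as exonic or intronic.

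The arrays differed in signal, and the Cy5 medians of the genotypes did not overlap. The median Cy5 signal of an array was 120 ± 33.4 in Ikzf1+/+ and 216 ± 9.93 in Ikzf1+/- (SD, n = 5 each), and the median Cy3 signal was 174 ± 5.76 and 160 ± 8.12. Probes that passed the scanner's background test, with no saturated spot, on every array and in each channel made up 89.1% of the Ikzf2 window (542 of 608), 96.6% of the Ikzf3 window (338 of 350) and 98.3% of autosomal probes. At Ikzf2 the Cy5 signal failed the background test in 25 to 50 probes of each Ikzf1+/+ array and in 5 to 14 of each Ikzf1+/- array. The part of this difference in signal in the results below was not tested, beyond the values given without these probes and with another background correction.

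Ikzf2 had no copy number call in any of the 10 tumours. Its mean ratio was a little below 0 in all of them, and further below 0 in Ikzf1+/+ than in Ikzf1+/- tumours, by an amount shared with the DNA on both sides. Ikzf3 had a call in 1 tumour, a short gain in Ikzf1+/+ tumour 1 that continued as a lower rise over most of the window, and ratios at the same place were raised less in Ikzf1+/+ tumour 4.

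At Ikzf2, the mean log2 ratio over the 608 probes was -0.20, -0.14, -0.18, -0.13 and -0.17 in Ikzf1+/+ tumours 1 to 5. The values of Ikzf1+/- tumours 1 to 5 were -0.061, -0.11, -0.033, -0.067 and -0.085. All 10 values lay below 0, and the groups did not overlap, with Ikzf1+/+ tumour 4 the closest to 0 of its group and still below Ikzf1+/- tumour 2. The mean over all 10 arrays was -0.12 ± 0.056 (SD), below 0 in 10 of 10 (two-sided exact sign-flip permutation test, p = 0.00195, the smallest that 10 arrays allow). A loss of 1 copy in all cells would give -1.

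The genotype means at Ikzf2 were -0.16 ± 0.030 in Ikzf1+/+ and -0.070 ± 0.027 in Ikzf1+/- (SD, n = 5 each). The difference, Ikzf1+/- minus Ikzf1+/+, was 0.092 ± 0.018 (SE) on the log2 scale (two-sided exact permutation test, p = 0.00794, the smallest that 5 against 5 arrays allow). On the only slide that held both genotypes, with 1 array of each, the difference was 0.11. With normexp background correction the group means were -0.099 and -0.070, the difference was 0.030 and the exact permutation p was 0.16.

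The flanks of Ikzf2 within 1 Mb on each side, 656 probes, had the same pattern. The Ikzf1+/+ tumours averaged -0.13 ± 0.042 there, and the Ikzf1+/- tumours -0.040 ± 0.016 (SD, n = 5 each). Relative to its own flanks, the Ikzf2 window lay at -0.035 ± 0.018 and -0.030 ± 0.012, and the genotypes then differed by 0.0052 (exact permutation p = 0.62). The window remained lower than its flanks in all 10 arrays, by a mean of -0.033 (exact sign-flip permutation p = 0.00195). The genotype difference in the flanks themselves was 0.087, close to the 0.092 of the window. Flank means were taken over probes, and dense tiling ran past both windows. Thus chr1:69481141-69811812 held 941 probes, 608 of them in the Ikzf2 window, and chr11:98159980-98494333 held 704, 350 of them in the Ikzf3 window. The flank means therefore lean on the DNA next to the windows.

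**Figure D1:**
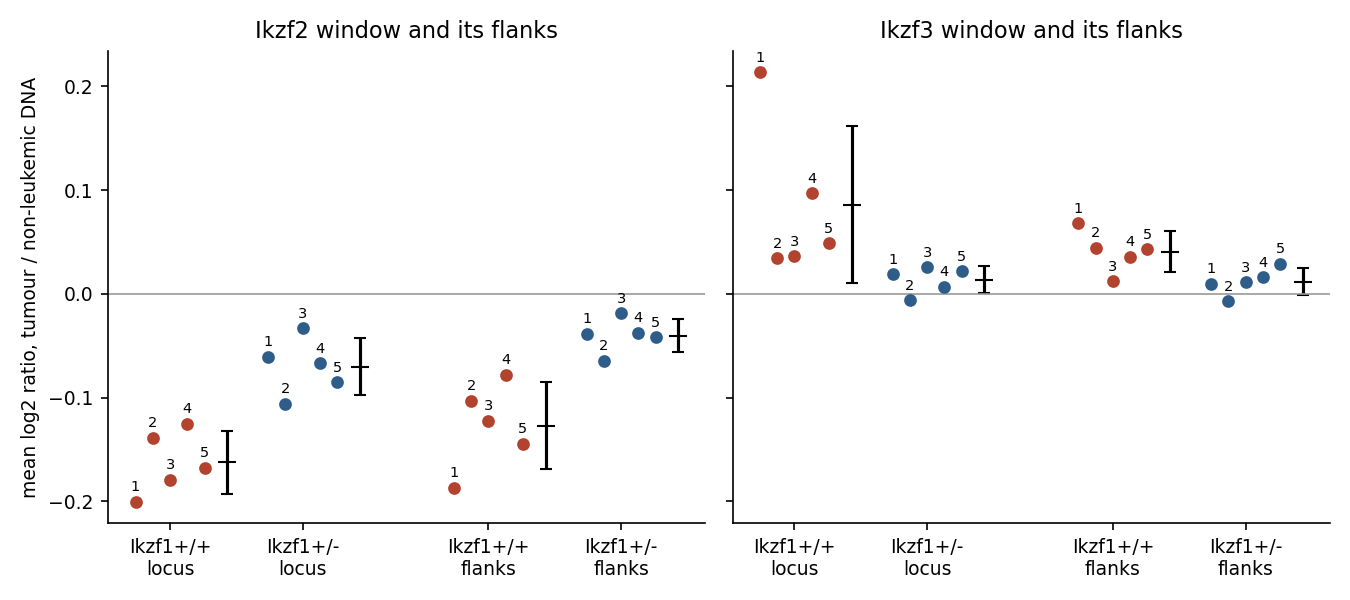
Mean log2 ratio of tumour over non-leukemic DNA for each array (points, numbered by tumour) over the Ikzf2 window, the Ikzf3 window and the flanks of 1 Mb on each side of each; bars show the mean ± SD of 5 arrays. At Ikzf2 window and flanks move together, at -0.16 and -0.13 in Ikzf1+/+ and at -0.070 and -0.040 in Ikzf1+/- tumours, while at Ikzf3 the window of Ikzf1+/+ tumour 1 stands at 0.21 above flanks at 0.068.

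Without normexp correction, segmentation, which cuts each array into stretches of even ratio, set no boundary inside the Ikzf2 window in any of the 10 tumours. The window lay within segments of 331 kb to 2464 kb with means from -0.20 to -0.054 in 9 tumours, and in Ikzf1+/- tumour 3 within a single segment that spanned chromosome 1, at -0.0044. None reached the size needed for a call, an absolute mean of 0.3 over at least 5 probes, nor did any at 0.2. Split into 4 parts in order of position, the window gave values from -0.22 to -0.022, and within an array the parts differed by 0.016 to 0.071. The shift thus ran through the whole window rather than sitting in a stretch of it. With normexp correction a boundary fell inside the window in Ikzf1+/+ tumour 1 alone, with segment means of -0.13 before it and -0.035 after it.

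The place of Ikzf2 among other DNA was low. Of 23426 windows of 100 kb across the autosomes, which held a median of 14 probes, 234 (1.00%) had a mean over the 10 arrays as low as that of Ikzf2. Of the 176 windows with at least 200 probes, 1 did, and it was one of the windows that overlap Ikzf2. A genotype difference as large in the same direction was less rare, in 8.40% of all 100 kb windows and in 14 of the 176 dense ones (7.95%).

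Tests across the whole array used limma with Benjamini-Hochberg adjustment at 0.05. None of the 3 windows of 100 kb that overlap Ikzf2 differed between genotypes (adjusted p from 0.12 to 0.17), against 5 of 23426 (0.0213%) over all autosomes. All 3 had an unadjusted p under 0.05, as did 16.6% of all windows, and with normexp correction 0 of the 3 did. Against non-leukemic DNA all 3 were lower (adjusted p from 0.0041 to 0.0060), where 10.5% of windows were lower. In simulated data the same fit called 40% of true window differences of 0.15 and 86% of those of 0.3. The changed windows were drawn from all windows, with a median of 14 probes, while those at Ikzf2 held 271 to 305. No difference below 0.15 was simulated, so these rates do not tell how often a difference of the size seen at Ikzf2 would be missed.

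In runs of 5 consecutive probes, 3 of the 123 at Ikzf2 were higher in Ikzf1+/- and 0 lower, against 0.0353% higher and 0.165% in either direction over all 76491 runs. With normexp correction 3 were higher and 1 lower. Over all 76491 runs 1344 were then higher and 395 lower, in place of 27 and 99. The higher runs at Ikzf2 thus stood out far less from the background with normexp. Of the 3 runs called without normexp, the first, chr1:69569093-69570056, had values of -0.29, -0.34, -0.32, -0.38 and -0.38 in Ikzf1+/+ tumours 1 to 5. Its values in the Ikzf1+/- group, in the same order, were 0.043, 0.0055, -0.047, -0.035 and -0.068. The groups lay well apart there (means -0.34 ± 0.040 and -0.020 ± 0.044, SD, n = 5; limma adjusted p = 0.0090). The other two were chr1:69646718-69648732, at -0.32 ± 0.15 and 0.027 ± 0.075 (limma adjusted p = 0.046), and chr1:69710909-69712075, at -0.18 ± 0.022 and 0.058 ± 0.057 (limma adjusted p = 0.045). In chr1:69646718-69648732 the groups overlapped, because Ikzf1+/+ tumour 2 was at -0.053 and the other four Ikzf1+/+ tumours at -0.38 to -0.41, while Ikzf1+/- tumour 3 was at -0.089. Without Ikzf1+/- tumour 1, none of the 123 runs passed the test, and with the median of the 5 probes in place of the mean none did either.

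The remaining runs at Ikzf2 leaned the same way. The ratio was higher in Ikzf1+/- in 115 of 123 runs (93.5%), with a median difference of 0.080, against 52.1% and 0.0039 over all runs. In the flanks it was higher in 112 of 129 (86.8%), with a median of 0.091. All 5 Ikzf1+/- values stood above all 5 Ikzf1+/+ values in 8 of 123 runs, where 1.32% of all runs did so, and in 20 of 608 probes, where 0.76% of all probes did. Against non-leukemic DNA 66 of the 123 runs were lower and 0 higher, with 4.13% of all runs lower. Runs at or below -0.3 numbered 23 of 123 in Ikzf1+/+ tumour 1 (18.7%, against 1.8% of its runs genome-wide) and 13 to 15 in the other four Ikzf1+/+ tumours. In Ikzf1+/- tumours they numbered from 1 in tumour 3 (0.813%, against 0.0693%) to 5 in tumour 2, and no tumour had a run at or above 0.3.

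Among single probes, 1 of 608 at Ikzf2 passed the genotype test, where 0.0871% of 382129 probes did. This probe, A_67_P00095522 at chr1:69649483-69649542, read -0.48, -0.64, -0.45, -1.08 and -0.85 in Ikzf1+/+ tumours 1 to 5. The Ikzf1+/- readings were 0.41, 0.35, 0.10, 0.11 and 0.029 (limma adjusted p = 0.0078). Its Cy5 signal was not well above background on any of the 5 Ikzf1+/+ arrays and on 1 of the 5 Ikzf1+/- arrays, and its Cy3 signal was not on 3 of the 10. The Ikzf1+/+ value is therefore only a bound, and no fold is given. Normexp correction turned the direction, with means of 0.074 in Ikzf1+/+ and -0.19 in Ikzf1+/-, and among probes above background on all arrays none at Ikzf2 passed the test.

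The probes of Ikzf2 with the most extreme mean ratios over all 10 arrays varied in how alike the tumours were. The lowest, A_67_P00095568 at chr1:69677073-69677132, was above background in both channels on all 10 arrays and averaged -0.66, from -1.73 in Ikzf1+/+ tumour 2 to 0.44 in Ikzf1+/+ tumour 1. Next came A_67_P00095321 at chr1:69553925-69553984, with a mean of -0.56 and values below 0 in all 10 tumours, from -1.27 to -0.095 (limma adjusted p against 0 = 0.0054). Its Cy5 signal was not above background on 4 Ikzf1+/+ arrays. The highest were A_67_P00095494 at chr1:69635167-69635226, with a mean of 0.24, and A_67_P04136153 at chr1:69646989-69647048, also at 0.24. The first was not above background in Cy5 on 3 Ikzf1+/+ arrays, nor in Cy3 on 1 Ikzf1+/+ and 2 Ikzf1+/- arrays. The second was above background on all arrays and read 0.24 to 0.49 in the Ikzf1+/- and -0.11 to 0.38 in the Ikzf1+/+ tumours.

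**Figure D2:**
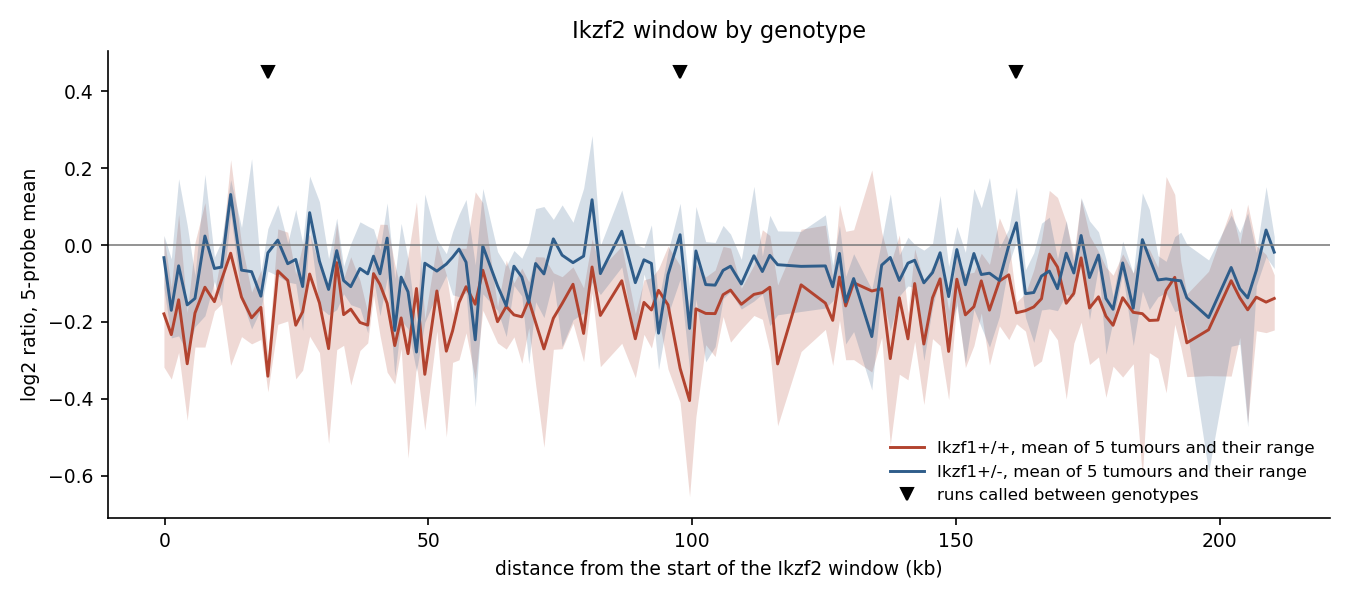
Mean log2 ratio in runs of 5 probes along the Ikzf2 window, in kb from its start; lines are genotype means, shaded bands the range of the 5 tumours, and triangles the 3 runs that passed the limma test between genotypes. The Ikzf1+/- line lies above the Ikzf1+/+ line in 115 of 123 runs.

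At Ikzf3, the mean log2 ratio over the 350 probes was 0.21, 0.034, 0.036, 0.097 and 0.049 in Ikzf1+/+ tumours 1 to 5. The values of Ikzf1+/- tumours 1 to 5 were 0.019, -0.0061, 0.026, 0.0070 and 0.022. The groups did not overlap, but Ikzf1+/+ tumours 2, 3 and 5 stood close above the highest Ikzf1+/- tumour, and tumours 1 and 4 apart from the rest. The mean over all arrays was 0.050 ± 0.064 (SD), above 0 in 9 of 10 (exact sign-flip permutation p = 0.0039). Relative to the flanks it was 0.023 (exact sign-flip permutation p = 0.12).

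The genotype means at Ikzf3 were 0.086 ± 0.076 in Ikzf1+/+ and 0.013 ± 0.013 in Ikzf1+/- (SD, n = 5 each), a difference of -0.072 ± 0.034 (SE; exact permutation p = 0.00794). The spread within Ikzf1+/+ was as large as the difference. Without Ikzf1+/+ tumour 1 the difference was -0.041. Its exact permutation p, 0.016, was fixed in advance, because the groups did not overlap with or without that tumour. On the slide that held both genotypes it was -0.030. The direction turned with normexp correction, to 0.012 (exact permutation p = 0.79), and centring on the flanks of 1 Mb on each side left -0.044 (exact permutation p = 0.14).

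The tumour with the highest Ikzf3 ratio, Ikzf1+/+ tumour 1, carried the only call at either locus. Segmentation placed a step up at chr11:98322737, 22.7 kb into the window, and a gain from there to chr11:98328941, 6.21 kb with 22 probes at a mean of 0.69. All 22 probes were above 0. From chr11:98329198 to chr11:98407943, 78.7 kb and 217 probes, the mean was 0.23, with 180 probes above 0. The segments before and after lay at 0.068 and 0.069. The 0.69 of the short stretch lay above the 0.58 that a gain of 1 copy in every cell would give, and the 0.23 of the longer stretch below it. For the longer stretch, a gain in part of the cells and a smaller rise in all of them cannot be told apart in bulk DNA. Single probes within both stretches were uneven, as given below, and what the rise consists of was not tested. In all, 85.2 kb of the window with 239 probes was raised. The 6.21 kb call was 1 of 39 gains called in the tumour, which together held 0.342% of its autosomal probes. Ikzf1+/+ tumour 4 had 19 gains, the other Ikzf1+/+ tumours 6 to 10 and the Ikzf1+/- tumours 2 to 5. Tumour 1 also had the lowest median Cy5 signal of all arrays, 88.4, and the highest probe noise (SD 0.222). Their part in the rise was not tested.

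The rise in Ikzf1+/+ tumour 1 was in the tumour channel. Over the 6.21 kb stretch its Cy5 signal was 0.60 above the median of the other arrays on the log2 scale, and its Cy3 signal was -0.020 from theirs. Over the 78.7 kb stretch the values were 0.21 and 0.0042. With normexp correction the same call was made at the same probes, with a mean of 0.55, and with the authors' deposited log2 ratios it was 0.69. The normexp mean of tumour 1 over the 78.7 kb stretch was 0.15. Both stretches were chosen by the values of this tumour, so no test was made on them.

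The same 6.21 kb stretch read 0.080, 0.096, 0.32 and 0.21 in Ikzf1+/+ tumours 2 to 5. In Ikzf1+/- tumours 1 to 5 it read 0.073, 0.031, 0.0057, 0.021 and 0.052. Tumours 4 and 5 of the Ikzf1+/+ group thus stood above every Ikzf1+/- tumour there, with 21 and 18 of 22 probes above 0, and tumours 2 and 3 only just did. The 78.7 kb stretch read 0.025, 0.038, 0.0998 and 0.052 in Ikzf1+/+ tumours 2 to 5 and from -0.017 to 0.028 in Ikzf1+/- tumours, so that there tumour 2 lay inside the Ikzf1+/- range. The order changed with normexp correction. The 6.21 kb stretch then read -0.0012, 0.22, 0.27 and 0.35 in Ikzf1+/+ tumours 2 to 5 and 0.12 to 0.18 in Ikzf1+/- tumours. Tumour 5 thus stood above tumour 4, and tumour 2 below every Ikzf1+/- tumour. The 78.7 kb stretch then read -0.013, 0.0995, 0.088 and 0.0996 in Ikzf1+/+ tumours 2 to 5 and 0.030 to 0.085 in Ikzf1+/- tumours.

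Before the stretches, the 54 probes at the start of the window had means of 0.040 to 0.071 in Ikzf1+/+ and 0.0058 to 0.053 in Ikzf1+/- tumours. The 57 probes after them had means of -0.017 to 0.12 and -0.038 to 0.059. The groups overlapped on both sides. Over the 111 probes outside both stretches the genotype difference was -0.030 (exact permutation p = 0.071), a choice of probes made after seeing the data. Without Ikzf1+/+ tumours 1 and 4, left out after their values were seen, the difference over the whole window was -0.026. Its exact permutation p, 0.036, was the smallest that 3 against 5 arrays allow. That p was fixed in advance, because the groups did not overlap, so it tests nothing further.

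Ikzf1+/+ tumour 4 had a segment of its own in the window, from chr11:98320068 to chr11:98353999, 33.9 kb with 108 probes at 0.21, which stayed under the threshold for a call. A threshold of 0.2 called it, and then joined both stretches of tumour 1 into a single gain of 85.2 kb at 0.27. Over the probes of that segment tumour 1 read 0.31, Ikzf1+/+ tumours 2, 3 and 5 read 0.013, 0.067 and 0.092, and the Ikzf1+/- tumours read -0.023 to 0.032. Without normexp correction no boundary fell inside the Ikzf3 window in any of the other 8 tumours. With normexp correction Ikzf1+/- tumours 1, 2, 4 and 5 each had a boundary inside it. Their segments read 0.21, 0.18, 0.21 and 0.25 before that boundary and 0.11, 0.072, 0.096 and 0.055 after it. Runs of 5 probes at or above 0.3 numbered 20 of 70 in Ikzf1+/+ tumour 1 (28.6%, against 1.61% of its runs genome-wide) and 4 in Ikzf1+/+ tumour 4 (5.71%, against 0.782%). Ikzf1+/+ tumours 3 and 5 had 1 each (1.43%, against 5.63% and 2.29%), and Ikzf1+/- tumour 5 had 2 (2.86%, against 1.69%). The rest had 0, against 0.0549% to 0.459% genome-wide.

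**Figure D3:**
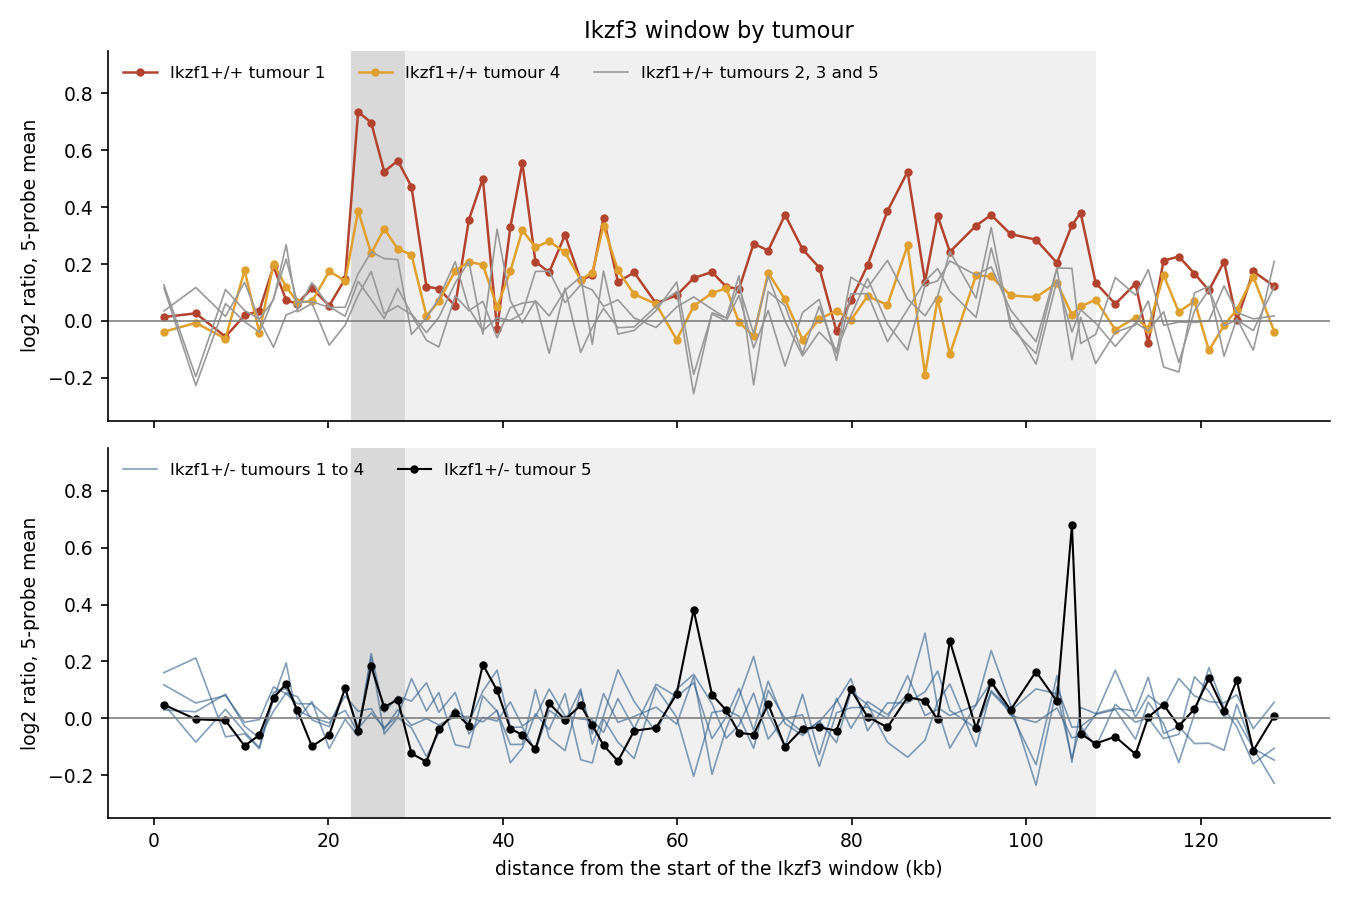
Mean log2 ratio in runs of 5 probes along the Ikzf3 window, in kb from its start, for the Ikzf1+/+ (top) and Ikzf1+/- tumours (bottom); dark shading marks the 6.21 kb stretch and light shading the 78.7 kb stretch of Ikzf1+/+ tumour 1. Tumour 1 rises at 22.7 kb and tumour 4 follows it at a lower level, while the single high point of Ikzf1+/- tumour 5 near the end of the shaded part rests on 1 probe.

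Inside these stretches single probes stood far above their neighbours. In Ikzf1+/+ tumour 1, 11 of the 350 Ikzf3 probes exceeded 0.8, or 3.14%, where 0.404% of its autosomal probes did, and 6 of the 11 lay in the 6.21 kb stretch. The highest, A_67_P02406535 at chr11:98351848-98351907, read 1.97, 0.55, 0.74, 1.30 and 0.55 in Ikzf1+/+ tumours 1 to 5. The Ikzf1+/- readings were 0.026, 0.13, 0.15, -0.026 and -0.0096. All Ikzf1+/+ tumours were above all Ikzf1+/- tumours at this probe, and tumours 1 and 4 were again the highest. Its neighbours 182 bp before and 121 bp after read 0.031 and -0.11 in tumour 1 and -0.066 and -0.052 in tumour 4.

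The next highest probe, A_67_P02406484 at chr11:98328897-98328941, was the last of the 6.21 kb stretch. It read 1.84, 0.16, 0.33, 0.76 and 0.45 in Ikzf1+/+ tumours 1 to 5, and from -0.029 to 0.31 in Ikzf1+/- tumours. The neighbour 257 bp after it read 0.11 in tumour 1 and -0.091 in tumour 4. A single tumour's rise was thus strong at one probe and small at the next, over less than 1 kb.

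The 11 probes were picked by their values in tumour 1, and the other tumours are given as a description. Their mean was 1.18 in Ikzf1+/+ tumour 1, 0.67 in tumour 4, and 0.18, 0.17 and 0.27 in tumours 2, 3 and 5. In Ikzf1+/- tumours it lay from -0.018 to 0.098. Tumour 4 exceeded every Ikzf1+/- tumour at 10 of the 11. Without these probes the 6.21 kb stretch still read 0.50 in tumour 1 and 0.21 in tumour 4 over its 16 other probes, and the 78.7 kb stretch 0.21 and 0.084 over its 212 other probes.

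Across the 350 probes tumours 1 and 4 also resembled each other. The correlation of their probe ratios was 0.46, the highest of 45 pairs of arrays, where the next pair was at 0.33 and the median at 0.13. All pairs share the probes and their base composition, and neighbouring probes are not independent, so the value is a description. At Ikzf2, where the highest pair was at 0.32 and the median at 0.17, tumour 1 was at 0.17 with tumour 4 and from -0.13 to -0.014 with the other 8 arrays. The Ikzf2 probe A_67_P00095413 at chr1:69597568-69597612, chosen after its values were seen, read 1.14 in tumour 1 and 0.78 in tumour 4, and from -1.27 to -0.29 in the other 8.

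**Figure D4:**
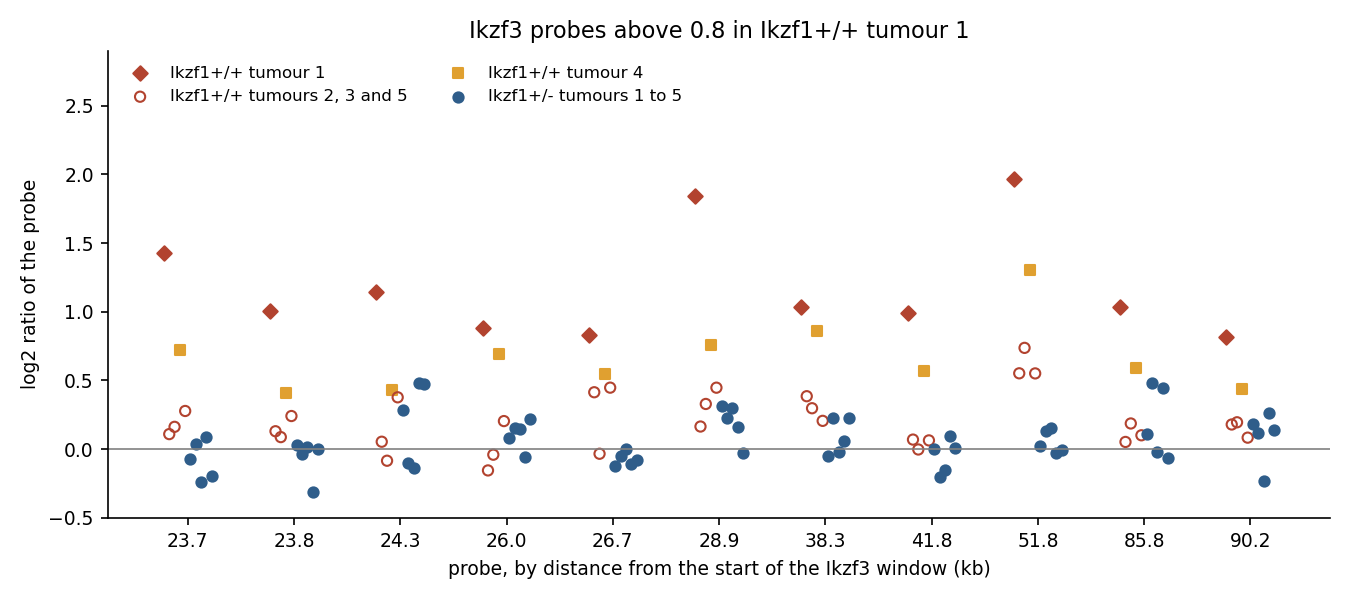
Log2 ratio in each of the 10 tumours of the 11 Ikzf3 probes that exceeded 0.8 in Ikzf1+/+ tumour 1, ordered by distance from the start of the window in kb. Diamonds (tumour 1) are highest by selection; squares (tumour 4) lie above all 5 Ikzf1+/- tumours at 10 of 11 probes.

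With normexp correction 6 Ikzf3 probes (4 higher and 2 lower in Ikzf1+/-) and 1 run (higher) passed the limma genotype test. Over all autosomes 2067 of 382129 probes and 1739 of 76491 runs then did. Without normexp, over all probes and without a block, no Ikzf3 probe, run or window passed on all 10 arrays. Without Ikzf1+/+ tumour 3, 2 of its probes passed, and with slide as a random block 1 did. The smallest limma adjusted p was 0.060 among the 350 probes, 0.17 among the 70 runs and 0.28 among the 2 windows of 100 kb. At an unadjusted p under 0.05 there were 53 of 350 probes (15.1%), 18 of 70 runs (25.7%) and 1 of 2 windows, against 8.52% of all autosomal probes, 12.2% of all runs and 16.6% of all windows. The probe of smallest p, A_67_P07458546 at chr11:98343660-98343709, read 0.67, 0.50, 0.30, 0.28 and 0.33 in Ikzf1+/+ tumours 1 to 5. The Ikzf1+/- readings were -0.11, -0.13, 0.075, -0.21 and -0.25. The groups were apart there, at 0.42 ± 0.16 and -0.12 ± 0.12 (SD, n = 5 each), and among probes above background on all arrays 2 Ikzf3 probes did pass.

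The next probes by p were A_67_P02406535, the highest probe described above, with a genotype difference of -0.97 ± 0.20 (SE; limma adjusted p = 0.099), and A_67_P02406479 at chr11:98326741-98326800, with a difference of -0.51 ± 0.13 (SE; limma adjusted p = 0.19). All 5 Ikzf1+/- values stood below all 5 Ikzf1+/+ values in 13 of 350 probes (3.71%), where 1.05% of all probes did so, and in 6 of 70 runs, where 1.47% of all runs did. The ratio was higher in Ikzf1+/- in 12 of 70 runs (17.1%) and in 45 of 141 flank runs (31.9%). The median difference was -0.073 over the Ikzf3 runs and -0.027 over the flank runs.

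Against non-leukemic DNA 10 of the 350 Ikzf3 probes were higher and 1 lower (limma adjusted p under the threshold), where 1.29% and 1.1% of all probes were. Of the 70 runs 5 were higher (3.33% of all runs). A_67_P07458682 at chr11:98396457-98396516 had one of the highest mean ratios, 0.48, and was raised in all 10 tumours, from 0.22 in Ikzf1+/- tumour 1 to 0.64 in Ikzf1+/+ tumour 2 (limma adjusted p = 0.00023). The lowest means were those of A_67_P02406428 at chr11:98305333-98305392, -0.26, and A_67_P07458507 at chr11:98329198-98329252, -0.24. Both varied widely within each genotype, the first from -0.97 to 0.25 among Ikzf1+/+ tumours, on 1 of which its Cy5 signal was not above background.

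Among the Ikzf1+/- tumours, tumour 5 held the highest Ikzf3 run, at 0.68 over the 5 probes of chr11:98404754-98405725. The run rested on the probe at chr11:98405666-98405725, which read 2.81 in this tumour, -0.20 or lower in the other four Ikzf1+/- tumours and from -0.30 to -0.011 in Ikzf1+/+ tumours. The other four probes of the run read 0.20, 0.54, -0.034 and -0.12 in tumour 5. Such a single high value made no segment. Tumour 5 had 3 of 350 Ikzf3 probes above 0.8, where 0.221% of its autosomal probes were. This probe was named after its values were seen.

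The nearest run that passed the genotype test near Ikzf3 lay 70.8 kb past the window, at chr11:98500796-98503427, with means of -0.44 ± 0.074 in Ikzf1+/+ and 0.16 ± 0.056 in Ikzf1+/- (SD, n = 5 each; limma adjusted p = 1.1e-04). There the direction was opposite to that of the Ikzf3 window. Near Ikzf2 the nearest lay 11074 kb away.

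Side by side, the loci differed from non-leukemic DNA in opposite directions and by small amounts in most tumours. The order at Ikzf3 placed Ikzf1+/+ tumours 1 and 4 first, and the other 8 tumours within 0.055 of each other. At Ikzf2 the order ran from Ikzf1+/- tumour 3 down to Ikzf1+/+ tumour 1, with neighbours in that order 0.0059 to 0.029 apart, about the SD within a genotype or less. A call as short as 5 probes could have been missed. At the simulated noise of Ikzf1+/+ tumour 1 (SD 0.222), 35% of 5-probe gains of 0.7 and 0% of those of 0.4 were recovered. With 20 probes 100% and 80% were. The probe SD of this array was larger inside the windows, 0.31 at Ikzf2 and 0.32 at Ikzf3, so recovery there may be lower.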

How the data were processed

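The deposited scanner files gave Cy5 and Cy3 intensity per spot as processed signals, which the authors' scanner software, Agilent Feature Extraction (version 10.7.3.1 per the file headers, 10.5.1.1 per the submitters' processing notes), had subtracted for background and normalised between dyes with a lowess protocol for CGH in build mm9, per the file headers. Their log10 ratio of Cy5 over Cy3 and the log2 ratios of the deposited series matrix agreed within rounding on every array (slope 1.00 after conversion), so the matrix holds tumour over reference, uncentred; its column medians ranged from -0.019 to -0.00060.

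The log2 ratio of the processed signals was computed for 412783 non-control spots. Outlier-flagged spots (88 to 256 an array) were dropped, repeat spots of a probe averaged, and the autosomal median of the array subtracted. Locus means were compared with exact permutation tests over 252 splits or with sign flips. Probes, runs of 5 probes and windows of 100 kb with at least 3 probes were fitted with limma 3.58.1 (R 4.3.3) over all autosomes at an adjusted p of 0.05; single probes were those measured on all 10 arrays. Arrays were segmented with PELT (penalty factor 2, at least 3 probes a segment, single values clipped at 4 noise SDs from the running median over 11 probes; numpy 2.4.6, numba 0.67.0, Python 3.11.15), called at an absolute mean of 0.3 over at least 5 probes, and calls joined across ratios of 0.15 or fewer than 5 probes. Scripts were tested on simulated data with 20 segments or 50 features of each size. Normexp used an offset of 50 on median spot signals, since mean signals were not used here. The only slide with both genotypes held 1 array of each; the others held 1 genotype. Labelled replicate numbers did not pair the tumours. The number of arrays limits the precision.

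Named probes were, at each locus, those past the genotype test or else the 3 of smallest p, and the 2 of highest and 2 of lowest mean; every called run was named. The planned list of other family members and B-lineage genes was left out, since no table used here places them in mm9. The loci, lists and tests were chosen with earlier results of these data known. No sequences of these probes, promoters or proteins were used here.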

Additional observations from a re-analysis of the deposited data

Results flagged for a closer look

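Both genotype differences stood out because the ratio of tumour over non-leukemic DNA differed between Ikzf1+/+ and Ikzf1+/- tumours by the exact permutation test, with no overlap of the groups. At Ikzf2 the difference, Ikzf1+/- minus Ikzf1+/+, was 0.092 on the log2 scale, and the flanks differed by 0.087. At Ikzf3 it was -0.072, and the flanks differed by -0.029. The median Cy5 signal of the arrays also differed between the genotypes, at 120 ± 33.4 and 216 ± 9.93 (SD, n = 5 each). The ranges did not overlap, at 88.4 to 159 in Ikzf1+/+ and 199 to 225 in Ikzf1+/-. The part of the signal in either difference was not tested, and the design does not separate signal from genotype. No array stood apart from its group in the locus means by Dixon's criterion for 5 values, which flags about 5% of groups by chance. The criterion looks for a single outlying value, so it can miss tumours raised together. At Ikzf3, Ikzf1+/+ tumours 1 and 4 both stood above the rest, at 0.21 and 0.097.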

How the results depend on the processing

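The Ikzf2 and Ikzf3 genotype differences kept their direction and their side of the threshold with the series matrix, the median over probes, the probes above background on all arrays, and centring on the own chromosome. With this last setting the Ikzf3 difference shrank to -0.055, just past the threshold (exact permutation p = 0.048). Slide as a random block was fitted with limma, not the exact test: the differences were 0.091 and -0.074, with unadjusted limma p of 0.0027 and 0.046 (0.0035 and 0.058 without the block) and adjusted limma p of 0.12 and 0.27 (0.15 and 0.31 without it). Leaving out 1 tumour at a time gave 0.082 to 0.10 at Ikzf2 and -0.085 to -0.041 at Ikzf3. With normexp Ikzf2 gave 0.030 and Ikzf3 turned to 0.012; with flank centring they gave 0.0052 and -0.044, and the Ikzf3 mean against non-leukemic DNA 0.023. Chosen after seeing the data, normexp with flank centring gave 0.0016 at Ikzf2 and -0.095 at Ikzf3 (exact permutation p = 0.024), and Ikzf3 without the raised stretches gave -0.030. The causes were not tested. With the replicate number as a block the values were 0.092 and -0.072, both at exact p = 0.0625, the smallest that 5 pairs allow; the numbers did not pair the tumours (correlations of same-numbered tumours from -0.018 to 0.20), the block gave 432 probes, 87 runs and 1 window, and at the loci 2 Ikzf2 probes, 1 Ikzf3 probe and 2 Ikzf2 runs.

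Over all autosomes 333 probes, 126 runs and 5 windows differed between genotypes. These counts were 2067, 1739 and 71 with normexp, 544 probes and 219 runs with slide as a random block, and 555 probes with only those above background. Medians over probes gave 11 runs and 0 windows, and at least 10 probes a window gave 0 windows, the fit then testing fewer or other values. Leaving out 1 tumour gave 95 to 698 probes, 11 to 350 runs and 1 to 25 windows. At Ikzf2 the 3 called runs were 0 to 3 and at Ikzf3 the runs stayed at 0 in those fits, while the probes were 1 to 2 at Ikzf2 and 0 to 2 at Ikzf3. Normexp gave 4 probes and 4 runs at Ikzf2 (3 runs higher, 1 lower) and 6 probes and 1 run at Ikzf3. A call threshold of 0.2 gave 2 tumours with a call at Ikzf3 in place of 1, and 5 alternatives gave 0 at Ikzf2. At Ikzf2, 66 probes fell below the signal limit, which bounds what single probes there can show.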
